A study of Daphnia magna with 27 samples.

Results

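The reporters described here are the spotted cDNA fragments of a Daphnia magna array that carry the name Mta, Mtb or ferritine. They were found by searching the reporter identifiers and gene names for these words, with or without the endings oud or bis, which the files do not explain. The search found 10 of 2261 reporters: Mta, Mta bis and Mta oud, Mtb, Mtb bis and Mtb oud, and Dama ferritine, ferritine, ferritine bis and ferritine oud. The search used names alone and no measured value, though earlier results of these data were known when the words were chosen. No cDNA sequence or gene identifier could be tied to a reporter in the sources used here, so no sequence or position is given and a reporter is called by its name throughout.

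Mta and Mtb are usual abbreviations for metallothioneins, small cysteine-rich proteins that bind zinc, copper and cadmium and buffer the free metal in a cell. In many animals their transcription rises with metal load through a zinc-sensing transcription factor, and they are used as markers of metal exposure in water fleas. Ferritin is a hollow protein shell that stores iron in an unreactive form. In insects, secreted ferritin also takes part in the uptake and transport of dietary iron.

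The study followed zinc exposure over successive generations of clonally reproducing water fleas of clone K6. Each of 27 samples was RNA of 10 pooled whole adults, hybridised on a two-dye array against a pool of 60 animals each of 6, 13 and 21 days of age. Daphnids of ZnF0 grew in modified M4 medium with zinc at 388 µg/L and were sampled at 23 days, and their controls, CtrlF0, at 20 days. Zn(+)F1, the offspring of ZnF0 kept in zinc, and Zn(-)F1, the offspring of ZnF0 moved back to control medium after birth, were both sampled at 21 days, and CtrlF1 at 22 days. In the next generation, Zn(+)F2 had zinc throughout and was sampled at 21 days. Zn(+/-)F2 came from Zn(+)F1 mothers and Zn(-/-)F2 from Zn(-)F1 mothers, and both grew in control medium and were sampled at 22 days. CtrlF2, with no added zinc in any generation, was sampled at 20 days. In whole pooled animals, fewer cells of a type and less of the transcript per cell cannot be told apart.

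Several of the deposited array columns limit what can be compared. CtrlF0 replicates 1 and 3 held the same values within 0.001 on the log2 scale for all 2066 reporters measured in both and were counted as 1 sample, so that CtrlF0 had n = 2. Zn(+)F1 replicate 2 held 886 values, all in the first 904 rows, and correlated at -0.02 and -0.10 with the other arrays of its group. Moved down by 1357 rows it correlated at 0.50 and 0.46, so its values are not shown to belong to the reporters they stand beside, and the array was left out. The remaining 25 arrays, with 16 residual degrees of freedom, were each centred on their median. The sample was in Cy5 on every array of ZnF0, CtrlF0 and CtrlF1 and in Cy3 on every array of Zn(+)F1 and Zn(-)F1, so dye and zinc history cannot be told apart in the F1 comparisons with CtrlF1. Over all reporters, arrays of ZnF0 and CtrlF1 correlated with arrays of Zn(+)F1 and Zn(-)F1 at -0.46 to -0.03, with a median of -0.33. Zn(+)F2 replicate 3 correlated at 0.03 and -0.13 with replicates 1 and 2 of its group, and replicates 2 and 3 hold 3 and 2 values beyond 16 in size, none of them of a member. Both arrays were kept, where the shifted column was left out for its row shift, and values without them stand beside the results they change. The labels state the dyes, so the direction sample over reference pool was kept, and the comparisons that cross these arrays were also run with the sign turned.

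Brightness separated the oud reporters from the others in each of the authors' deposited tables except CtrlF2 vs CtrlF0. In the authors' deposited tables, the average log2 expression (AveExpr) of ferritine oud was 8.93 where ZnF0 was compared with CtrlF0 and 9.33 where CtrlF1 was. It was 8.94 for CtrlF2 vs CtrlF0 and 9.82 where CtrlF1 was set against CtrlF2. In the same order, the authors' deposited tables gave 6.85, 6.99, 7.59 and 8.39 for Mta oud and 7.26, 7.07, 7.79 and 7.82 for Mtb oud, near the table medians of 7.37 to 7.60. The other 7 reporters lay between 4.45 and 4.93 in the 2 authors' deposited tables without CtrlF2, between percentiles 2.43 and 6.06 of all reporters. In the 2 authors' deposited tables with CtrlF2, these 7 ran from 5.26 for ferritine to 8.15 for ferritine bis. For CtrlF2 vs CtrlF0, ferritine bis at 8.15 and Mtb at 7.79 were above Mta oud at 7.59. Average expression is a brightness of the spot and ranks no transcript above another.

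**Figure D1:**
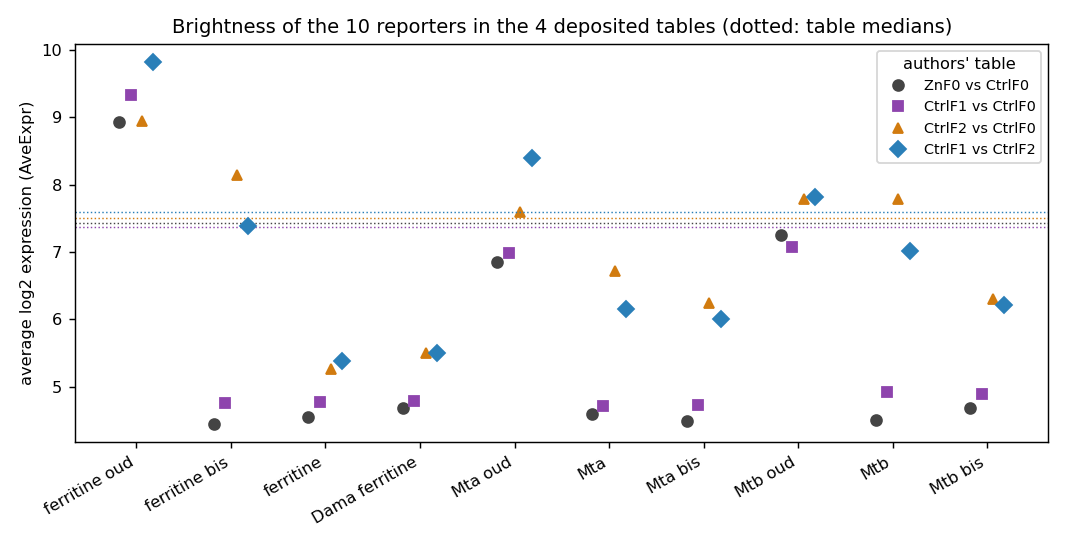
Average log2 expression (AveExpr, y axis) of each of the 10 reporters (x axis) in the authors' 4 deposited tables, with the median of each table as a dotted line. Ferritine oud lies above every median at 8.93 to 9.82, and the 7 reporters without oud lie between 4.45 and 4.93 in the 2 tables without CtrlF2.

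The reporters without oud were also measured less often. The 3 oud reporters had a value on all 25 arrays, as had 1806 of the 2261 reporters (79.9%). Mta had a value on 23 arrays, Mta bis and ferritine bis on 22, ferritine on 20, Mtb on 18, Mtb bis on 15 and Dama ferritine on 12, while 9.33% of all reporters had 23 or fewer. On CtrlF1 replicates 1 and 2 the oud reporters were the 3 members with a value. On CtrlF1 replicate 3 there were 8, so each Mta, Mtb or ferritine reporter without oud has at most 1 CtrlF1 value.

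Ferritine oud was the brightest reporter of the set, and its zinc-history means lay below the control mean of their own generation in each of the 6 comparisons in the labelled direction, although no difference passed the test. The centred log2 ratio of sample to reference pool was -0.39, -0.10 and -0.29 in ZnF0, against -0.04 and -0.15 in CtrlF0. These groups overlap, and the difference was -0.17 ± 0.20 (SE of the limma fit; adjusted p = 0.744; AveExpr 8.93). The authors' deposited table gave -0.15 ± 0.06 for the same comparison, with adjusted p = 0.0662, and 0.15 with its sign turned. Zinc and the sampling ages of 23 days in ZnF0 and 20 days in CtrlF0 cannot be told apart. In that authors' deposited table, 0 of the 7 reporters tested were called at an adjusted p under 0.05, where 33.2% of all reporters were. In the array values limma called 0 of 7, where 10.9% of all reporters were called. At an unadjusted p under 0.05 there was 1 in the authors' deposited table, ferritine oud, where the share of all reporters was not counted. In the array values there were 0, where 23.7% of all reporters were under it.

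In the F1 generation, ferritine oud stood at -0.33 and -0.20 in Zn(+)F1 and at -0.19, -0.44 and -0.23 in Zn(-)F1, against 0.14, 0.06 and 0.09 in CtrlF1. Every array of both zinc histories was below every CtrlF1 array. How many of all reporters separate in this way was not counted, so nothing is drawn from it. The difference from CtrlF1 was -0.36 ± 0.20 for Zn(+)F1 (0.779-fold, 95% CI -0.78 to 0.06, adjusted p = 0.263). It was -0.39 ± 0.18 for Zn(-)F1 (0.766-fold, 95% CI -0.76 to -0.01, adjusted p = 0.181). Both share the CtrlF1 arrays, which differ from them in dye. With the sign of the CtrlF1 arrays turned, the differences were -0.17 for Zn(+)F1 (adjusted p = 0.777) and -0.19 for Zn(-)F1 (adjusted p = 0.695). With only the groups compared in the fit, the Zn(-)F1 difference had an adjusted p of 0.0331. With limma array weights it was -0.41, with an adjusted p of 0.00828. Zn(+)F1 was not called under either setting. AveExpr is deposited for no table with these zinc groups. In the authors' deposited tables that hold CtrlF1 it was 9.33 and 9.82.

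In F2, ferritine oud stood at 0.08, -0.08 and -0.24 in Zn(+)F2, at -0.36, -0.31 and -0.11 in Zn(+/-)F2 and at -0.25, -0.29 and -0.25 in Zn(-/-)F2. CtrlF2 had -0.08, 0.86 and -0.05 for replicates 1, 2 and 3. The difference from CtrlF2 was -0.33 ± 0.18 for Zn(+)F2 (adjusted p = 0.275), -0.50 ± 0.18 for Zn(+/-)F2 (adjusted p = 0.113) and -0.50 ± 0.18 for Zn(-/-)F2 (adjusted p = 0.0609). Without both Zn(+)F2 replicates 2 and 3 the first was -0.17 (adjusted p = 0.765), from 1 Zn(+)F2 array. All 3 comparisons share CtrlF2, and its mean of 0.24 rests on replicate 2. Without that array the differences were -0.02 for Zn(+)F2, -0.19 for Zn(+/-)F2 and -0.19 for Zn(-/-)F2, with adjusted p-values of 0.956, 0.401 and 0.300. Without CtrlF2 replicate 1 the Zn(-/-)F2 difference was -0.66 and passed, with an adjusted p of 0.0233. Without replicate 3, Zn(+/-)F2 and Zn(-/-)F2 both stood at -0.65 and passed, with adjusted p-values of 0.0433 and 0.0262. With replicate 2 left out, all 3 Zn(-/-)F2 arrays and all 3 Zn(+/-)F2 arrays were below both remaining CtrlF2 arrays. The share of all reporters that do so was not counted here either. Ferritine bis went the other way in Zn(-/-)F2, with all 3 arrays above all 3 CtrlF2 arrays. Its difference of 0.27 ± 0.22 did not pass (limma adjusted p = 0.456). AveExpr of ferritine oud was 8.94 and 9.82 in the authors' deposited tables that hold CtrlF2.

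**Figure D2:**
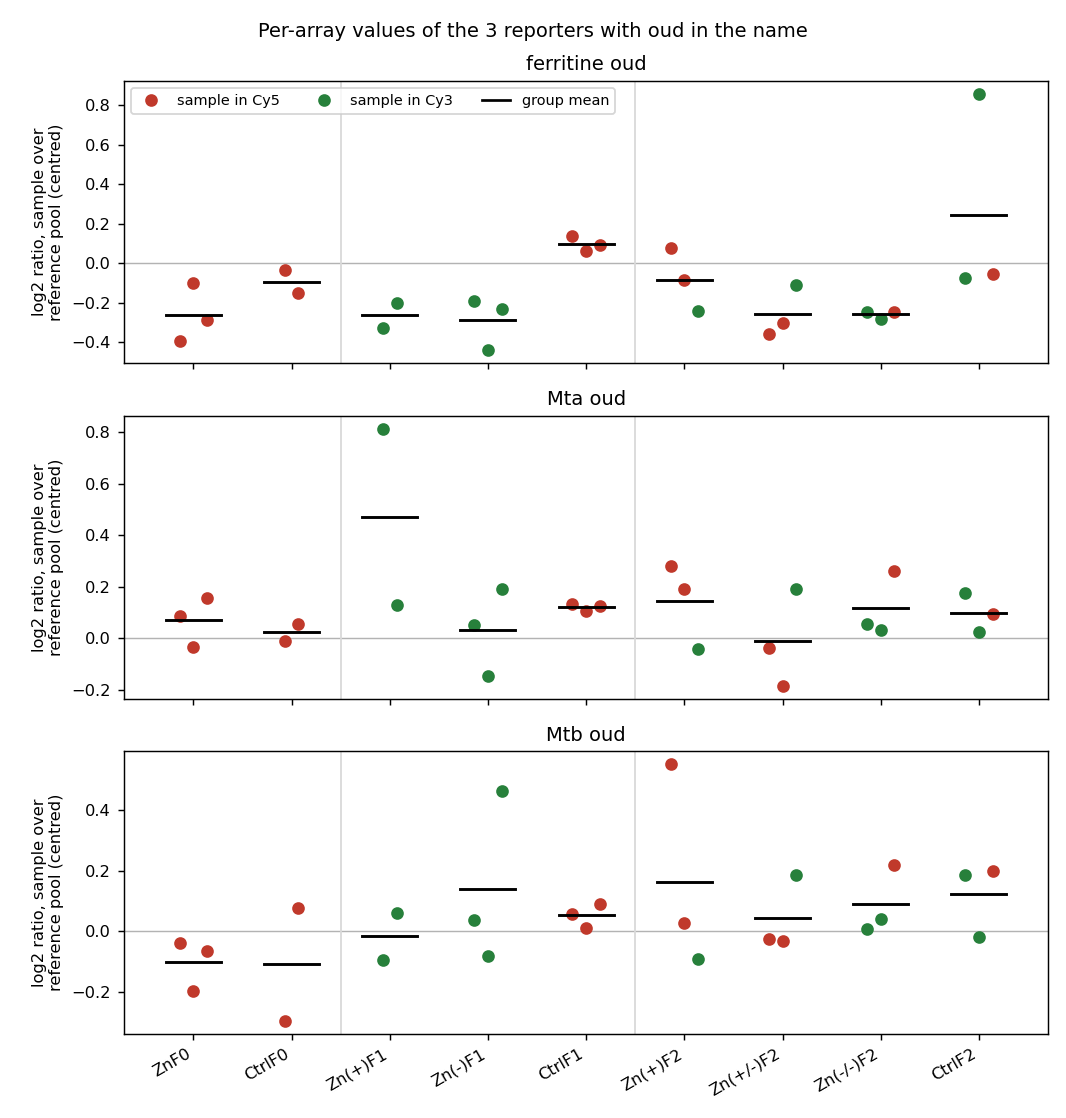
Centred log2 ratio of sample to reference pool (y axis) of ferritine oud, Mta oud and Mtb oud on each of 25 arrays (points, coloured by the dye of the sample), by group (x axis), with group means as black lines. For ferritine oud, Zn(+)F1 and Zn(-)F1 lie between -0.44 and -0.19 and CtrlF1 between 0.06 and 0.14, and 1 CtrlF2 array stands apart at 0.86.

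Mta oud, a metallothionein-named reporter near the median brightness, had its highest value of all arrays, 0.81, on a single array, Zn(+)F1 replicate 1. On that same array the like-named Mta had its lowest value, -1.02, and Mta bis stood at -0.26. Mta oud stood at 0.81 and 0.13 in Zn(+)F1, against 0.13, 0.11 and 0.13 in CtrlF1. The groups overlap, and the difference of 0.35 ± 0.16 (1.27-fold, 95% CI 0.00 to 0.70) did not pass the test (adjusted p = 0.180; AveExpr 6.99 and 8.39 in the authors' deposited tables that hold CtrlF1). Without Zn(+)F1 replicate 1 the difference was 0.01, and without replicate 3 it was 0.69 with an adjusted p of 0.0150, in each case from 1 Zn(+)F1 array that is assumed to vary like the other groups. With the sign of the CtrlF1 arrays turned it was 0.59 and passed (adjusted p = 0.0452). With the shifted column moved down, which puts that array at -0.43, it was 0.05 (adjusted p = 0.933). Zn(-)F1, at 0.05, -0.15 and 0.19, differed from CtrlF1 by -0.09 ± 0.15 (adjusted p = 0.807).

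In the first generation, Mta oud stood at 0.09, -0.03 and 0.16 in ZnF0, against -0.01 and 0.06 in CtrlF0, a difference of 0.05 with a 95% CI of -0.30 to 0.39 (adjusted p = 0.953; AveExpr 6.85). In F2 it stood at 0.28, 0.19 and -0.04 in Zn(+)F2, at -0.04, -0.18 and 0.19 in Zn(+/-)F2 and at 0.06, 0.03 and 0.26 in Zn(-/-)F2, against 0.18, 0.03 and 0.09 in CtrlF2. Each of these groups overlaps its control, and the F2 differences were 0.05, -0.11 and 0.02 (adjusted p = 0.891, 0.746 and 0.953; AveExpr 7.59 and 8.39). The widest interval among these 4 comparisons was that of ZnF0.

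Mtb oud, a metallothionein-named reporter of like brightness, overlapped its control in every comparison with a zinc history. It stood at -0.04, -0.20 and -0.07 in ZnF0, against -0.29 and 0.08 in CtrlF0, a difference of 0.01 with a 95% CI of -0.36 to 0.38 (AveExpr 7.26). In F1 it stood at -0.09 and 0.06 in Zn(+)F1 and at 0.04, -0.08 and 0.46 in Zn(-)F1, against 0.06, 0.01 and 0.09 in CtrlF1. In F2 the values were 0.55, 0.03 and -0.09 in Zn(+)F2, -0.02, -0.03 and 0.19 in Zn(+/-)F2, and 0.01, 0.04 and 0.22 in Zn(-/-)F2, against 0.19, -0.02 and 0.20 in CtrlF2. The 5 differences of F1 and F2 then ran from -0.08 to 0.09 with adjusted p-values of 0.829 or more (AveExpr 7.07 to 7.82). Intervals for Mtb oud reached from -0.44 to 0.42 over the 6 comparisons. Without Zn(+)F2 replicates 2 and 3, the Zn(+)F2 difference was 0.43 from the 1 array left (adjusted p = 0.194).

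**Figure D3:**
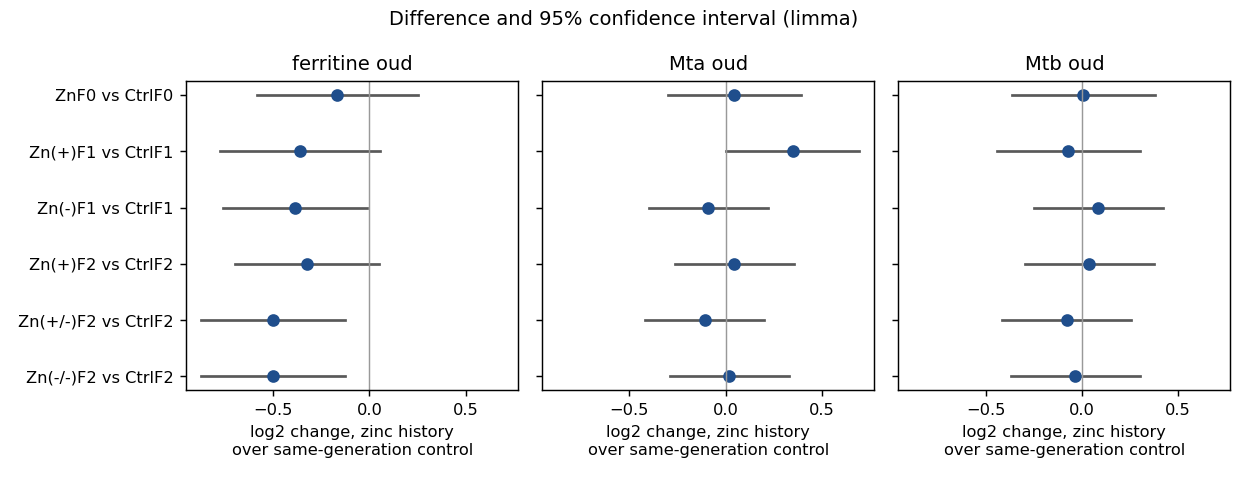
Log2 change with its 95% confidence interval from limma (x axis) for the 6 comparisons of a zinc history with the control of its generation (y axis), for ferritine oud, Mta oud and Mtb oud. Ferritine oud lies below 0 in all 6 rows at -0.17 to -0.50, and Mtb oud lies between -0.08 and 0.09; the F1 rows share CtrlF1 and the F2 rows share CtrlF2.

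Mtb, which was dim only in the authors' deposited tables without CtrlF2, carried both calls made in the array values. It had -0.10 and -0.01 in Zn(+)F1 and -0.27, -0.23 and -0.23 in Zn(-)F1, against -0.97 on CtrlF1 replicate 3, the 1 CtrlF1 array with a value. Zn(+)F1 was higher by 0.91 ± 0.24 (1.88-fold, adjusted p = 0.0228), and Zn(-)F1 by 0.72 ± 0.23, which did not pass (adjusted p = 0.0520). The test assumes that the lone CtrlF1 value varies like the other groups. Without CtrlF1 replicate 3 there is no value to compare, and the call was lost without Zn(+)F1 replicate 1 (0.95, adjusted p = 0.0969) or replicate 3 (0.87, adjusted p = 0.0934), which leave 1 array on each side. It was also lost with uncentred values (0.90, adjusted p = 0.367) and with all 27 columns in the fit (0.64, adjusted p = 0.182). It was kept with the replicate block (0.92, adjusted p = 0.0392), only the groups compared (0.91, adjusted p = 0.0327), array weights (0.91, adjusted p = 0.000431) and quantile normalization (1.82, adjusted p = 0.000183). With dye as a covariate the difference was 1.09 (adjusted p = 0.0202). That term is estimated from the F2 groups, the only ones with both dyes, so it cannot part dye from zinc history in F1. Without Zn(+)F2 replicates 2 and 3, which enter the shared spread, the Zn(-)F1 difference also passed (adjusted p = 0.0192). With the sign of the CtrlF1 array turned, the difference was -1.02 and passed (adjusted p = 0.0338). AveExpr of Mtb was 4.93 for CtrlF1 vs CtrlF0, 7.01 for CtrlF1 vs CtrlF2 and 7.79 for CtrlF2 vs CtrlF0 in the authors' deposited tables.

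Of the members tested in the F1 comparisons, 1 of 8 was called for Zn(+)F1 vs CtrlF1, where 15.5% of all reporters were. There, 2, Mtb and Mta oud, had an unadjusted p under 0.05, where 27.1% of all reporters had. For Zn(-)F1 vs CtrlF1 limma called 0 of 8, where 14.1% of all reporters were called, and 2, Mtb and ferritine oud, had an unadjusted p under 0.05, where 25.6% of all reporters had. In F2, Mtb stood at 0.30, 0.30 and -0.27 in Zn(+)F2, at -0.02, -0.31 and 0.15 in Zn(+/-)F2 and at 0.03, 0.09 and 0.32 in Zn(-/-)F2, against 0.04, -0.08 and 0.18 in CtrlF2. All 3 overlap CtrlF2 (differences 0.06, -0.10 and 0.10; AveExpr 7.79 and 7.01). No member passed in F2: 0 of 10 for Zn(+)F2, where 6.51% of all reporters were called, 0 of 10 for Zn(+/-)F2, where 3.54% were, and 0 of 10 for Zn(-/-)F2, where 17.4% were. At an unadjusted p under 0.05 limma gave 0, 1 and 1 in this order, ferritine oud both times, where 24.4%, 20.6% and 30.7% of all reporters were under it.

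The size of the differences of members, without regard to sign, had a median of 0.06 in ZnF0 over the 7 with values, where all reporters had 0.26. The medians were 0.36 over 8 members in Zn(+)F1 and 0.15 over 8 in Zn(-)F1, where all reporters had 0.285 and 0.25. Over all 10 members in F2 they were 0.17 in Zn(+)F2, 0.17 in Zn(+/-)F2 and 0.19 in Zn(-/-)F2, where all reporters had 0.26, 0.22 and 0.29. Differences above 0 numbered 3 of 7 members in ZnF0, 2 of 8 in Zn(+)F1, 6 of 8 in Zn(-)F1, 9 of 10 in Zn(+)F2, 0 of 10 in Zn(+/-)F2 and 6 of 10 in Zn(-/-)F2. Among all reporters, 49.6% to 57.1% were above 0 in these comparisons, which share controls within a generation. Members of like name are not independent, as Mta and Mta bis correlated at 0.79. The sample was in Cy5 on 2 of 3 arrays in Zn(+)F2 and in Zn(+/-)F2, and on 1 of 3 in Zn(-/-)F2 and in CtrlF2. Dye and zinc history are therefore partly mixed in the Zn(+)F2 and Zn(+/-)F2 counts.

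Mta, Mta bis and Mtb bis gave no call, and their within-group SDs of 0.345, 0.355 and 0.517 lay at percentiles 66.0, 67.4 and 81.5 of all reporters, where the median reporter had 0.258. In ZnF0, Mta stood at 0.20, 0.15 and 0.04, against -0.40 and 0.79 in CtrlF0 (difference -0.06 ± 0.30; AveExpr 4.59). Mta bis stood at 0.38 and -0.09 in ZnF0, against -0.46 and 0.56 in CtrlF0 (difference 0.10 ± 0.34; AveExpr 4.49). The 2 CtrlF0 samples thus lay on either side of all ZnF0 values for both reporters. Mta and Mta bis correlated at 0.79 over the 22 arrays with both, which share groups, dyes and spots of like name. In Zn(+)F1, Mta stood at -1.02 and -0.07, against -0.07 on the 1 CtrlF1 array (difference -0.48 ± 0.41, adjusted p = 0.534). Mtb bis ran from -0.99 on CtrlF2 replicate 2 to 0.88 on Zn(+)F2 replicate 2, and its largest difference from CtrlF2 was 0.40 ± 0.39 in Zn(+)F2 (AveExpr 6.30 and 6.22).

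The reporter named ferritine had a within-group SD of 2.57, at percentile 99.5 of all reporters. Dama ferritine had 0.988 (percentile 94.6) and ferritine bis 0.277 (percentile 54.6), where ferritine oud had 0.217 (percentile 37.0). On 6 of its 20 arrays it was beyond 1 in size. The values were 6.70 on Zn(+)F2 replicate 1, 5.78 on CtrlF2 replicate 3 and 1.39 on Zn(+/-)F2 replicate 2, all with the sample in Cy5. They were -3.04 on Zn(+)F1 replicate 1, -2.43 on CtrlF2 replicate 2 and -1.14 on CtrlF2 replicate 1, all with the sample in Cy3. On the other arrays ferritine ran from -0.53 to 0.39. Whether the dye had a part in this was not tested. Its difference from CtrlF2 was 1.41 ± 1.93 in Zn(+)F2 (AveExpr 5.26 and 5.38).

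Dama ferritine had 3.45 and 0.15 in Zn(+)F2, against 0.25, -0.32 and 0.16 in CtrlF2. Its difference of 1.77 ± 0.79 did not pass (adjusted p = 0.214; AveExpr 5.51 and 5.50). Without Zn(+)F2 replicate 2, the high array was the single Zn(+)F2 value and the difference of 3.42 passed (adjusted p = 0.000891), with that lone value assumed to vary like the other groups. Ferritine bis stood at 0.61, 0.45 and -0.47 in Zn(+)F2, against 0.00, -0.15 and 0.06 in CtrlF2. The low value came from the 1 array with the sample in Cy3, and without that array the difference of 0.56 passed (adjusted p = 0.0339; AveExpr 8.15 and 7.38). Leaving it out kept only Cy5 arrays in Zn(+)F2, while CtrlF2 had the sample in Cy3 on 2 of 3 arrays. Each member with a value on the array left out had its lowest Zn(+)F2 value there. Whether the dye had a part in the ferritine bis difference was not tested. In Zn(-/-)F2 ferritine bis stood at 0.15, 0.09 and 0.48, all above CtrlF2 (difference 0.27 ± 0.22, adjusted p = 0.456). How many of all reporters separate in this way was not counted. In Zn(+/-)F2 it stood at -0.41, -0.39 and 0.19 and overlapped CtrlF2 (difference -0.17 ± 0.22, adjusted p = 0.725). In ZnF0 ferritine bis stood at 0.20, 0.26 and 0.07, against 0.44 and 0.25 in CtrlF0 (difference -0.18 ± 0.25; AveExpr 4.45).

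On the arrays of Zn(+)F2 and CtrlF2, the sign of the deposited values of the members followed the array. These 6 arrays were deposited uncentred, with medians of 0.31, 0.32 and -0.41 in Zn(+)F2 and -0.34, -0.31 and 0.35 in CtrlF2. The medians were above 0 on the 3 arrays with the sample in Cy5 and below 0 on the 3 with it in Cy3. Members shared the sign of the median in 10 of 10, 10 of 10 and 9 of 9 cases in Zn(+)F2, and in 10 of 10, 9 of 10 and 10 of 10 in CtrlF2. Of all reporters, 77.9% to 85.6% did so. The 1 exception was ferritine oud on CtrlF2 replicate 2, deposited at 0.55 where the array median was -0.31.

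**Figure D4:**
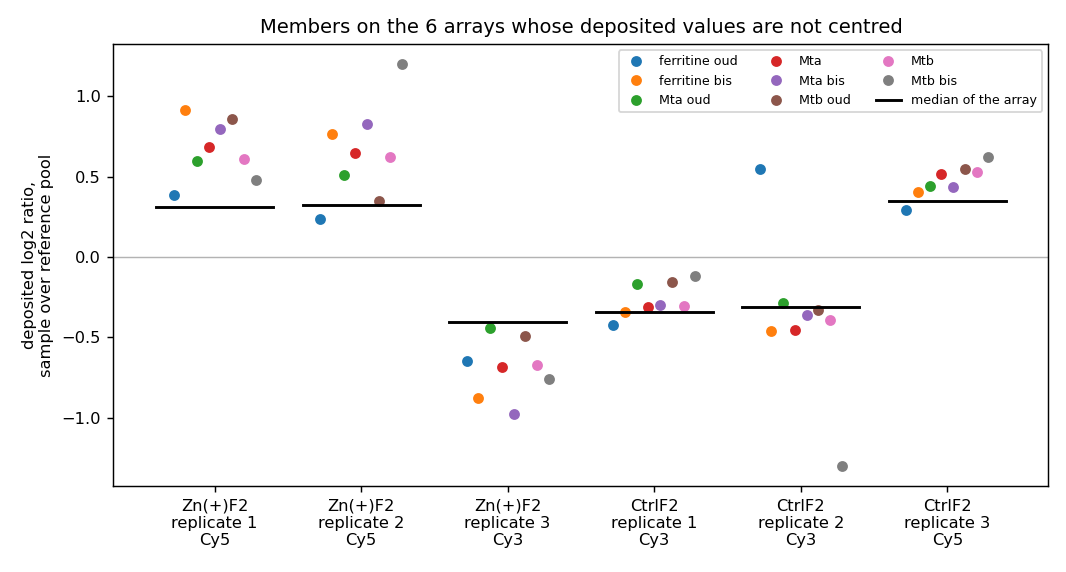
Deposited, uncentred log2 ratio (y axis) of 8 of the 10 reporters (points) on the 6 arrays of Zn(+)F2 and CtrlF2 (x axis, with the dye of the sample), and each array's median as a black line; ferritine and Dama ferritine, which reach 7.01, are not drawn. The members lie on the same side of 0 as the array median, except ferritine oud on CtrlF2 replicate 2.

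Zn(+)F1 and Zn(-)F1 share dye, age and the generation of their mothers, ZnF0, and differ in zinc during growth, a comparison added after the data had been seen. No member passed, 0 of 10 by limma, where 0.0890% of all reporters did, and 1, Mta oud, had an unadjusted p under 0.05, where 5.12% of all reporters had. Ferritine oud had the means -0.27 in Zn(+)F1 and -0.29 in Zn(-)F1, a difference of 0.02 with a 95% CI of -0.39 to 0.44. Mta oud was at 0.81 and 0.13 in Zn(+)F1, against 0.05, -0.15 and 0.19 in Zn(-)F1, a difference of 0.44 ± 0.16 (adjusted p = 0.881). The groups overlap, and the higher mean rests on Zn(+)F1 replicate 1. The single reporters without oud ran from -3.10 for ferritine to 0.19 for Mtb, with 1 or 2 Zn(+)F1 values each.

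Between control generations, ferritine oud gave the 1 member call of the authors' deposited tables, when CtrlF1 was compared with CtrlF0. There, in the authors' deposited table, it was higher in CtrlF1 by 0.22 ± 0.04 (1.16-fold, adjusted p = 0.00057, AveExpr 9.33). That made 1 of 6 members tested, where the authors' deposited table called 25% of all reporters. The SE of ferritine oud lay at percentile 0.180 of that table, and whether spots within an array counted singly in it is not given. In the array values CtrlF1 stood at 0.14, 0.06 and 0.09, against -0.04 and -0.15 in CtrlF0. The difference was of like size, 0.19 ± 0.20, and did not pass in a fit with 1 spread over 9 groups (adjusted p = 0.820). There, limma called 0 of 6 members and 3.03% of all reporters. No member had an unadjusted p under 0.05, where 16.2% of all reporters had. Dividing the authors' t by its robust SD over the table also ended the call (adjusted p = 0.121). The sampling ages of 22 days in CtrlF1 and 20 days in CtrlF0 cannot be told apart from generation.

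Against CtrlF0, CtrlF2 had ferritine oud higher by 0.34 ± 0.20 in the array values (adjusted p = 0.388), and the authors' deposited table gave 0.35 ± 0.16 (adjusted p = 0.182, AveExpr 8.94). The CtrlF2 mean again holds replicate 2 at 0.86. The authors' deposited table called 0 of 7 members, where 12.5% of all reporters were called, and in the array values limma called 0 of 7, where 2.25% were. At an unadjusted p under 0.05 there was 1 in the authors' deposited table, ferritine oud, where the share of all reporters was not counted. The array values gave 0, where 18.8% of all reporters were under it. For CtrlF1 vs CtrlF2, the authors' deposited table called 0 of 8 members, where 30.8% of all reporters were called. It also had 0 at an unadjusted p under 0.05, where the share of all reporters was not counted. In the array values 1 of 8 was called, where 19.4% of all reporters were. The same 1 had an unadjusted p under 0.05, where 29.6% of all reporters had. The call was Mtb, lower in CtrlF1 at -0.97 on its 1 array, against 0.04, -0.08 and 0.18 in CtrlF2 (difference -1.01 ± 0.23, adjusted p = 0.00788). The authors' deposited table gave -1.01 ± 0.61 for it (adjusted p = 0.260, AveExpr 7.01). It was lost with uncentred values (adjusted p = 0.261) and with only the 2 groups in the fit (adjusted p = 0.0633), and had the opposite sign, at 0.92, with the CtrlF1 array turned (adjusted p = 0.0348). It was kept with dye as a covariate (-1.13, adjusted p = 0.00605), the replicate block (-1.05, adjusted p = 0.0161), array weights (-0.97, adjusted p = 0.00176) and quantile normalization (-1.92, adjusted p = 0.000122). Ferritine oud changed sign without CtrlF2 replicate 2, with 0.16 in place of -0.15.

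The difference of a zinc history from its control, called its effect here, was compared between generations for the oud reporters. Each such effect also holds a difference in sampling age, and one in dye in F1 and partly in F2. It is therefore not known to be an effect of zinc alone. The Zn(+)F1 effect minus the ZnF0 effect was -0.19 ± 0.28 for ferritine oud, 0.30 ± 0.23 for Mta oud and -0.08 ± 0.25 for Mtb oud (adjusted p = 0.772, 0.472 and 0.921). The Zn(+)F2 effect minus the Zn(+)F1 effect was 0.04 ± 0.27, -0.30 ± 0.22 and 0.11 ± 0.24 in the same order (adjusted p = 0.950, 0.402 and 0.821). For Mtb this difference was -0.85 ± 0.29 (adjusted p = 0.0720), with the lone CtrlF1 value in it. None of these differences passed.

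A keyword list for iron, metal and stress matched 5 further reporters, and none passed in any comparison. They were 3 named retinol dehydr, which by name would be retinol dehydrogenases of vitamin A metabolism, and 1 each named peroxinectin, a peroxidase-like cell adhesion protein of arthropods, and oxidoreductase. In the array values, 0 of 3 tested were called in ZnF0, where 10.9% of all reporters were. In each F1 and F2 comparison of a zinc history with its control 0 of 5 were called, where 3.54% to 17.4% of all reporters were. By limma, 1 of these had an unadjusted p under 0.05, retinol dehydr bis in Zn(-)F1 vs CtrlF1, at -0.52 ± 0.21 (adjusted p = 0.118). In that comparison 25.6% of all reporters were under it. The authors' deposited table for CtrlF1 against CtrlF2 had retinol dehydr oud at 0.14 ± 0.07, also with an unadjusted p under 0.05 (adjusted p = 0.118).

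Over the 25 arrays, which share groups and dyes, the reporters most like ferritine oud were EBT_DamaEne_ASP7 E11 (Pearson r = 0.70) and EBT_DamaEne_ASP6 A11 (r = 0.63), among 1803 with a value on every array. Their Spearman correlations were -0.09 and 0.17, far below the Pearson values. The reporters most like Mtb oud were EBT_DamaEne_ASP8 A11 (r = 0.71, Spearman 0.58) and EBT_DamaMol_ASP2 C7 (r = 0.67, Spearman 0.46). Among the members, Mta oud and Mtb oud correlated at 0.29 (Spearman 0.58). Between reporters of like name, r was -0.29 for Mta oud and Mta over 23 arrays (Spearman 0.36), and Zn(+)F1 replicate 1 held 0.81 and -1.02 for them. It was 0.30 for Mtb oud and Mtb over 18 arrays (Spearman 0.51). For ferritine oud it was -0.02 with ferritine over 20 arrays (Spearman -0.03) and 0.17 with ferritine bis over 22 (Spearman 0.39).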

How the data were processed

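The authors' 4 deposited tables, 1 per comparison, were made in limma (version unstated), per the submitters' processing notes. By the deposited readme, columns give log2 fold change, average log2 expression over arrays and channels, raw p-value and its adjusted form, the t score and B. SE is the deposited log2 change divided by t. The deposited value table holds 1 log2 ratio per reporter and array. Its scale and direction, sample over reference pool, were found by setting differences of group means against the authors' deposited log2 changes (slopes 0.997 and 0.992 without CtrlF2, 0.489 and 0.689 with it). Arrays of the F1 and F2 zinc histories are in none of these tables, and their direction rests on the labels' dyes. The sources used here do not give background correction or array normalization.

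Arrays were centred on their median and fitted with limma 3.58.1 in R 4.3.3 (9 group means, moderated t, Benjamini-Hochberg over all reporters, called under 0.05), after a test on simulated data. The design had all 27 columns. Centring, merging the copied CtrlF0 columns and leaving out the shifted Zn(+)F1 column were decided after the array values had been seen, and the other choices are alternatives. The members, the keyword list and the rule for named reporters (all members, the list, and 2 most like reporters each for the brightest metallothionein-named and ferritine reporter) were chosen with earlier results of these data known. One array whose title and characteristics differ was grouped by its characteristics. Nothing says whether replicates came from separate cultures, so p-values measure the spread between these samples, which may be technical. The number of arrays limits the precision.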

Additional observations from a re-analysis of the deposited data

How the results depend on the processing

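Alternatives were run over 14 results from the tables and arrays and for the named reporters. Of these, 747 kept the count of called members, or the direction of a single value and its side of the threshold. In 28 a count moved, and in 44 a single value changed sign, whether or not it passed. Among single values that kept their sign, 15 newly passed and 7 no longer passed. Single-reporter alternatives were run for the oud reporters and Mtb. The dye covariate is estimated from the F2 groups alone, so it cannot part dye from zinc history in the F1 comparisons with CtrlF1. Alternatives chosen after seeing the data were all 27 columns, the moved column, values beyond 16 left out, the turned arrays, complete reporters, and Zn(+)F2 replicates 2 and 3 left out. Restricting to reporters with a value on all 27 arrays left no member. Brightness, missing values and the 2 usable Zn(+)F1 and CtrlF0 samples limit all of this. The cause of each change was not tested.

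Counts of called members under alternatives follow. The share of all reporters called under the same setting is not given beside them, so nothing is drawn from these counts. Centring the zinc table gave 1 (ferritine oud), and dividing t by its robust SD gave 0 for CtrlF1 vs CtrlF0. For Zn(+)F1 vs CtrlF1 the count was 0 uncentred, with complete reporters and with 27 columns, and 2 with only the groups compared (Mtb, ferritine) and with arrays turned (Mtb, Mta oud); leaving out 1 array gave 0 to 1. For Zn(-)F1 vs CtrlF1 it was 1 with dye as a covariate, with quantile normalization with arrays turned and without Zn(+)F2 replicates 2 and 3 (Mtb), and 2 with only the groups compared and with array weights (Mtb, ferritine oud). Array weights gave 2 for Zn(+)F2 (Dama ferritine, ferritine) and 1 for Zn(+/-)F2 and Zn(-/-)F2 (ferritine oud), and leaving out 1 array gave 0 to 1 for each. Without Zn(+)F2 replicates 2 and 3 it was 1 for Zn(+)F2 (Dama ferritine). For CtrlF1 vs CtrlF2 it was 0 uncentred, with only the groups compared and with complete reporters, and 0 to 1 leaving out 1 array. All 86 alternative values of ferritine oud in the 5 F1 and F2 zinc comparisons were below 0 and 7 passed; these share control arrays.

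Changes of sign: turning the zinc table gave 0.15, -0.10 and 0.068 for ferritine oud, Mta oud and Mtb oud. Turning arrays gave 0.036 (Mtb oud) and -1.02 (Mtb) for Zn(+)F1, 0.15 (Mta oud) and -1.21 (Mtb) for Zn(-)F1, and -0.22 (Mta oud) and 0.92 (Mtb) for CtrlF1 vs CtrlF2. Uncentred, Zn(+/-)F2 had 0.0026 (Mta oud), 0.033 (Mtb oud) and 0.0064 (Mtb), Zn(-/-)F2 had 0.073 (Mtb oud), CtrlF2 vs CtrlF0 had -0.019 (Mta oud) and CtrlF1 vs CtrlF2 had 0.028 (Mtb oud). Dye as a covariate gave 0.050 for Mtb oud in Zn(+)F1 and -0.0068 for Mta oud in CtrlF1 vs CtrlF2. Quantile normalization gave -0.044 for Mtb oud in ZnF0. Array weights gave 0.0058 for Mtb in Zn(+/-)F2 and -0.0093 for Mta oud in Zn(-/-)F2. For Zn(+)F1 vs Zn(-)F1, 27 columns gave -0.081 (Mtb) and the moved column -0.12 (ferritine oud).

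Leaving out 1 array, Mtb oud ran from -0.18 to 0.20 in ZnF0, -0.15 to 0.0083 in Zn(+)F1, -0.075 to 0.20 in Zn(-)F1, -0.15 to 0.17 in Zn(+)F2, -0.10 to 0.0080 in Zn(-/-)F2, -0.025 to 0.35 in CtrlF1 vs CtrlF0 and -0.27 to 0.0057 in Zn(+)F1 vs Zn(-)F1. Mta oud ran from -0.024 to 0.14 in Zn(+)F2, -0.054 to 0.062 in Zn(-/-)F2 and -0.012 to 0.062 in CtrlF1 vs CtrlF2. Mtb ran from -0.032 to 0.25 in Zn(+)F2 and -0.21 to 0.019 in Zn(+/-)F2. Ferritine oud ran from -0.31 to 0.16 in CtrlF1 vs CtrlF2 and -0.053 to 0.088 in Zn(+)F1 vs Zn(-)F1.

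Same-numbered samples were not shown to pair: their correlations ran from -0.295 to 0.315, and every pair was over 0.1 only for Zn(+)F1 vs CtrlF1, with 2 pairs. With the replicate block no count of called members moved, and Mtb oud in ZnF0 was -0.029.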
